A study of Mus musculus with 4 samples.

Results

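The cells described here are resting oligodendrocyte precursors of the mouse hypothalamus at postnatal day 7 (P7), 756 of the 8917 cells of that age and of the 43261 cells of the series. They were chosen by raw counts of unique molecular identifiers (UMIs, each standing for 1 captured RNA molecule). A member had at least 2 UMIs of Pdgfra, at least 1 of Olig1 and Olig2 together, 0 of Mki67 and Top2a together and at most 2 of Gpr17. These 6 genes chose the cells, so their levels are a description and support nothing. The name "resting" stands for the absence of Mki67 and Top2a UMIs, and such an absence can also come from shallow sampling of a cell.

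The animals were C57BL/6J mice that carried Rax-CreERT2 and the Ai14 reporter. Rax-CreERT2 makes a tamoxifen-inducible Cre recombinase where the gene Rax is active, and Ai14 makes the red protein tdTomato once Cre has acted. All ages shared both alleles and 1 dose of tamoxifen, which the labels place at embryonic day 9 in one field and 9.5 in another. Hypothalami were taken at ages titled E11, E14, P0 and P7, which other labels place slightly later for all but P0, and live tdTomato-positive cells were sorted and captured in droplets. The cells are thus progeny of Rax-expressing neuroepithelium that recombined in that window, and not all precursors of the hypothalamus. Each age was 1 sample. The names of the P0 cells carry 2 prefixes, as do those of E11 and E14; the labels do not say what these stand for, and the P0 sets are called runs and shown separately here. With 1 sample per age no test between ages is possible. Intervals are 95% and exact (Poisson for levels, binomial for ratios and shares), and cover counting error only. Where a count is 0, the value it is said to allow is that of 3 counts and not an exact limit.

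Oligodendrocyte precursors are glial progenitors that divide under the ligand PDGF-A, read by the receptor Pdgfra, and keep the transcription factors Olig1, Olig2 and Sox10. They carry chondroitin sulfate proteoglycans on their surface, receive synapses from neurons and persist into adult life. When a precursor commits, it leaves the cell cycle, makes the receptor Gpr17 for a short time and then turns on Enpp6, Bcas1 and the myelin genes.

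Of the P7 cells, 3252 had at least 2 Pdgfra UMIs, 3219 of those had Olig1 or Olig2, and 2202 of those had no Mki67 or Top2a UMI. The limit on Gpr17 then kept 756, or 34.3% of the 2202, and left 1446 above it. The members were 8.48% of all P7 cells (7.91 to 9.08%). The same rule kept 188 of 12080 cells at P0, or 1.56% (1.34 to 1.79%), with 2.73% in run 1 and 1.26% in run 2. It kept 7 of 17150 cells at E14, or 0.0408%, and 0 of 5114 at E11, which allows a share of up to 0.0587% (exact upper limit 0.0721%). These are shares of sorted and filtered cells, and the runs of P0 differed from each other. All 2452 cells of P0 run 1 had a tdTomato UMI, while 353 of the 9628 of run 2 and 74 of the 8917 at P7 had none, so the shares do not rest on like sets of cells, and the labels describe no such filter.

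The Gpr17 limit ran through the bulk of a single distribution. Of the 2202 non-dividing Pdgfra cells, 160 had 0 Gpr17 UMIs, 297 had 1 and 299 had 2, just inside the limit. Just outside it, 291 had 3 and 232 had 4. At the other thresholds, 85 members had exactly 2 Pdgfra UMIs, 445 further cells met the rule but for a single Pdgfra UMI, and 116 met it but for a single Mki67 or Top2a UMI. The members' Pdgfra count had a median of 7 and a maximum of 33.

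**Figure D1:**
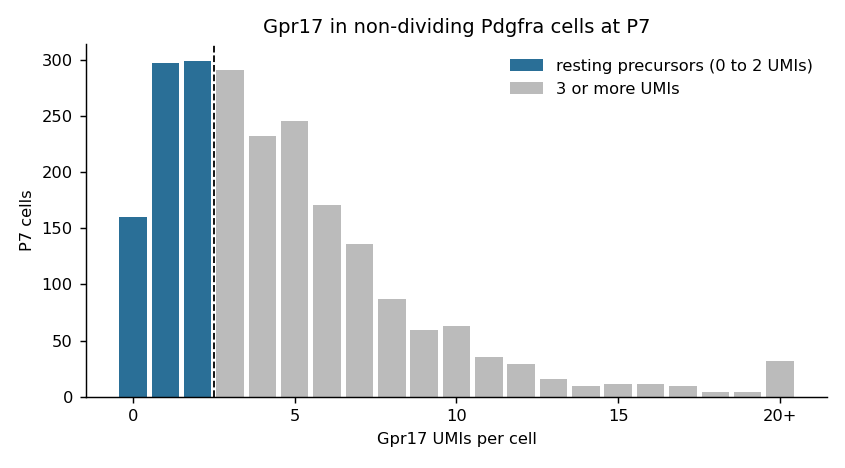
Number of P7 cells (vertical axis) by Gpr17 UMIs per cell (horizontal axis, last bar 20 or more) among the 2202 cells with at least 2 Pdgfra UMIs, Olig1 or Olig2, and no Mki67 or Top2a UMI. Blue bars are the members and grey bars the cells above the limit; 299 cells with 2 UMIs sit beside 291 with 3, with no gap at the dashed line.

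Members were shallower than most cells, with a median of 6900.5 UMIs against 11174 over all P7 cells, and they held 6776365 UMIs in all. Levels below are CPM (UMIs of a gene per 1000000 UMIs summed over a group), and a share of cells with a UMI is taken at each cell's full depth unless it is said to be after thinning, which cut each cell to 2500 UMIs. A barcode of 2 members occurred in another library, out of 146 barcodes that libraries shared. tdTomato had at least 1 UMI in 97.8% of the members. Scrublet, a doublet caller, marked 33 members (4.37%), 4.50% of the Gpr17-rich and 3.39% of the dividing cells described below, and marked cells were kept. P0 run 2 alone held many cells with Xist, the RNA of the inactive X chromosome: 44 of its 121 cells, against 0 of 67 in P0 run 1 and 1 of the 756 members at P7. Y-linked genes had a UMI in 78 of the 121, 26 of the 67 and 616 of the 756, and 31 cells of run 2 had Xist and no Y-linked UMI. Run 2 thus held RNA of both sexes, and its sex makeup cannot be told apart from the other differences of age and run.

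The label was checked on 3 markers that the rule did not use: Cspg4, which encodes the proteoglycan NG2, Matn4, which encodes an extracellular matrix protein, and C1ql1, a secreted C1q-like protein. At full depth all 3 had a UMI in 508 members (67.2%) and none in 28. In P7 cells chosen by the astrocyte genes Aqp4 and Agt, 0.346% had all 3, and in cells chosen by the neuronal gene Snap25 it was 0 of 412, which allows a share of up to 0.728%. The astrocyte cells were required to lack Pdgfra and Gpr17 UMIs and the neurons to lack Pdgfra, Olig1 and Olig2, so their low values were in part fixed by that choice and support nothing. The markers did not set the members apart from the Gpr17-rich cells described below: 1334 of those 1668 cells (80.0%) had all 3. Cspg4 stood at 357 CPM in the members against 17.5 in the astrocyte cells and 3.77 in the neurons. After thinning it was found in 59.4% of the members, 5.26% of the astrocyte cells and 1.70% of the neurons. C1ql1 was at 676 CPM against 16.1 and 7.33, and in 79.4%, 4.57% and 1.70% of thinned cells. The median depths before thinning were 6900.5, 10055 and 23743.5 UMIs, in the same order. Sox10, the transcription factor of the whole lineage, was at 339 CPM and in 60.6% of thinned members, against 1.66% and 1.46%. In the 85 members with exactly 2 Pdgfra UMIs Cspg4 was at 64.0 CPM, against 426 in the 671 with 3 or more. Matn4 was at 70.9 against 338, C1ql1 at 156 against 799 and Sox10 at 79.4 against 400. Median depths of these 2 sets were 10639 and 6799 UMIs. The markers thus bear out the label less well in those 85 members.

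Against all other P7 cells the genes that led in the members were Ostf1, C1ql1, Matn4, Lhfpl3, Cspg4, Mmp15, Pou3f1 and Rlbp1. Ostf1 led with 263 against 78.9 CPM, and Lhfpl3 had 506 against 163. The other cells include the dividing and Gpr17-rich precursors, which carry these genes as well, and the cells were chosen by correlated genes, so these values describe the members and test nothing.

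Defining markers of mature oligodendrocytes were near absent: Mog, Mobp and Opalin had 0 UMIs in the members, which allows up to 0.443 CPM, and 719 of the 756 had none of the 8 genes of that list. The fibroblast genes Dcn, Lum and Col3a1 also had 0 UMIs, although Pdgfra marks fibroblasts too. Microglial, endothelial, mural, fibroblast and erythroid lists summed to between 2.21 and 12.1 CPM. The tanycyte list summed to 40.9 CPM and the ependymal list to 119, with 223 ependymal UMIs in a single member. The committed precursor list, which includes the rule gene Gpr17, summed to 265 CPM.

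Neuronal and astrocytic RNA was present at higher levels. The 9 neuron markers summed to 1361 CPM in the members, against 4825 in the neurons, and 68 of the members had no UMI of them. The RNA was uneven: 83 members (11%) had at least 1500 CPM of these markers and are called neuron-marked here. Without them the sum was 403 CPM. Neuron-marked cells made up 3.96% of the Gpr17-rich cells and 3.95% of the dividing precursors. They were 44.7% of the members with exactly 2 Pdgfra UMIs and 6.71% of those with 3 or more, and 46.7% of the cells with a single Pdgfra UMI that the rule left out. By Gpr17 they went from 21.9% of members with 0 UMIs to 10.8% with 1 and 5.35% with 2. The 9 astrocyte markers summed to 730 CPM against 5172 in the astrocyte cells, and 31 members (4.10%) had at least 2500 CPM of them. Snap25 and Rbfox3 chose the neurons, Aqp4 and Agt chose the astrocyte cells, and these genes are among the summed markers. The sums of the neurons and astrocyte cells were thus in part raised by that choice. Of the 33 members that Scrublet marked, 17 were among the 673 that were not neuron-marked (2.53%). Only 5 were among the 642 that were also below 2500 CPM of astrocyte markers (0.779%). In the comparison of ages, counts of called genes that moved without the neuron-marked cells are given both ways. The part of the neuron-marked cells was not tested beyond those values.

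**Figure D2:**
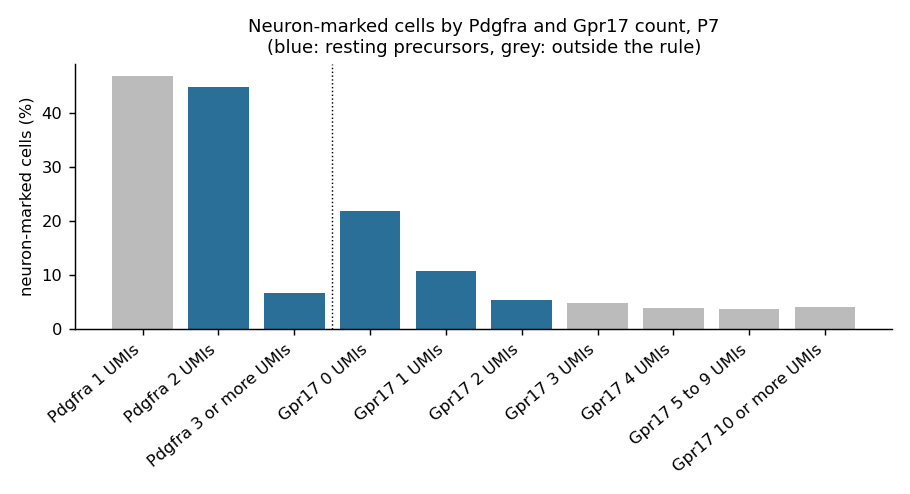
Percentage of P7 cells with at least 1500 CPM of neuron markers (vertical axis), by the number of Pdgfra UMIs (left of the dotted line) and of Gpr17 UMIs (right of it), among non-dividing cells with Olig1 or Olig2 (Pdgfra bars at most 2 Gpr17 UMIs, Gpr17 bars at least 2 Pdgfra UMIs). Blue bars are members; the share is 44.7% at 2 Pdgfra UMIs and 6.71% at 3 or more, and 21.9% at 0 Gpr17 UMIs.

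The neuropeptide genes show how few cells set a level. Avp, which encodes the hormone vasopressin, had 11043 UMIs in the members, and 5397 and 4366 of them lay in 2 cells. Its level was 1630 CPM with the neuron-marked cells and 124 without. After thinning, Avp had a UMI in 27.1% of members, 26.7% of the Gpr17-rich cells, 23.1% of astrocyte cells and 24.0% of neurons. Ghrh had 2204 UMIs, of which 95.1% lay in neuron-marked members, and for Npy the share was 81.8%.

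The members of P7 were set against the cells the same rule kept at P0. This asks how precursors with no Mki67 or Top2a UMI and few Gpr17 UMIs differed between the 2 ages. The ratio for calling a gene was taken after adding 5 CPM to each level, and a gene was called at 2-fold or more. Of 9591 genes that entered, 545 (5.68%) were called higher at P7 and 85 (0.886%) lower. The median log2 ratio over all genes was 0.15. This is over the genes that entered, while the median of a list is over all its genes in the table outside the rule, entering or not. All 545 were also higher than in each P0 run, 293 of them at 2-fold in both, while 62 of the 85 lower genes were lower than in both runs and 18 at 2-fold in both. In P7 and P0 cells with no UMI of Pdgfra, Olig1, Olig2 or Sox10, 228 of the 545 (41.8%) and 26 of the 85 (30.6%) were also 2-fold apart in the same direction, against 4.40% and 1.04% of the 9591 genes. Of 10560 genes that entered in those cells 6.76% were called higher at P7 and 1.40% lower. These cells, called cells outside the lineage below, numbered 1520 at P7 and 8211 at P0. Of them 67.2% and 79.2% were neuron-marked and 5.26% and 1.92% had at least 2500 CPM of astrocyte markers. Their mix thus differed with age, and its part in the ratios there was not tested. Against run 1 alone 16.1% of 8031 genes were called higher at P7 and 1.79% lower, and against run 2 alone 8.11% of 9149 higher and 1.27% lower. Without neuron-marked cells 593 genes (6.39%) were higher and 98 (1.06%) lower.

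Of 19 genes of precursor identity outside the rule, 5 were called higher at P7 and 0 lower, against 5.68% called higher over all genes, 16 had the higher value at P7, and their median log2 ratio was 0.63 against 0.15 over all genes. The 5 were Matn4, C1ql1, Susd5, Emid1 and Tmem100. Matn4 had 287 CPM at P7, 57.9 in P0 run 1 and 150 in run 2, a ratio of 2.32 over both runs (2.0 to 2.71). C1ql1 had 676 CPM against 209 and 336, a ratio of 2.26 (2.05 to 2.49). Both genes were higher at P7 than in each run. Against run 1 alone 8 of the 19 were called, beside 16.1% of all genes, and against run 2 alone 3, Susd5, Emid1 and Tmem100, beside 8.11%. Without neuron-marked cells 7 were called, with Sox10 and Scrg1 added, beside 6.39%. Of 11 identity genes that entered in cells outside the lineage 1 was called higher at P7, C1ql1, beside 6.76% of all genes. The list's median log2 ratio there was 0.195 against 0.082 over all genes. Plain ratios there, with no CPM added, were 3.86 for C1ql1, 3.28 for Matn4, 6.46 for Susd5, 2.24 for Emid1 and 1.24 for Tmem100. None of these but C1ql1 was called there. Sox10 had 339 CPM against 174 and 181, a ratio of 1.90 (1.67 to 2.16) that missed 2-fold and reached 2.18 without neuron-marked cells. Lhfpl3, Mmp15, Cspg4 and Pcdh15 were higher by less than 2-fold over both runs. Cspg4 had 357 CPM against 143 and 265.

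Cells with all 3 of Cspg4, Matn4 and C1ql1 were 67.2% of members at P7, 13.4% in P0 run 1 and 43.0% in run 2, at median depths of 6900.5, 5675 and 7959 UMIs. The shares were not thinned to a common depth. Run 1 was the shallowest, and it also carried 412 CPM of erythroid, 93.5 of endothelial and 82.4 of mural genes, against 12.1, 3.69 and 2.21 at P7. Neuron-marked cells were 23.9% of run 1 and 9.92% of run 2. Their part in the age differences was not tested beyond the values without neuron-marked cells.

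Of 17 extracellular matrix genes that entered, 6 were called higher at P7 and 0 lower, against 5.68% called higher over all genes. Their median log2 ratio was 0.27, near the 0.15 over all genes, and 7 were called without neuron-marked cells. The proteoglycan cores Bcan (brevican) and Cspg5 (neuroglycan C) were the most abundant of the 6: Bcan had 1230 CPM against 463 and 451, and Cspg5 had 2620 against 659 and 1272. Col9a3, a collagen IX chain, had 137 against 31.2 and 69.2. Sparcl1, also among the 6, had 60.5% of its 2945 UMIs in the astrocyte-marked members. The calls of this list were not counted without those cells. In cells outside the lineage 3 of 16 matrix genes were called higher at P7, Bcan, Sparcl1 and Sparc, beside 6.76% of all genes, and the ratios there were 2.80 for Bcan, 2.54 for Sparcl1, 2.05 for Sparc, 1.86 for Col9a3 and 1.58 for Cspg5. Other matrix genes did not differ so: Ncan (neurocan) had 251 CPM against 285 and 253, and Vcan (versican) 99.0 against 102 and 122. Ptprz1, a proteoglycan phosphatase, had 2090 against 1407 and 2586, with P7 between the runs.

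**Figure D3:**
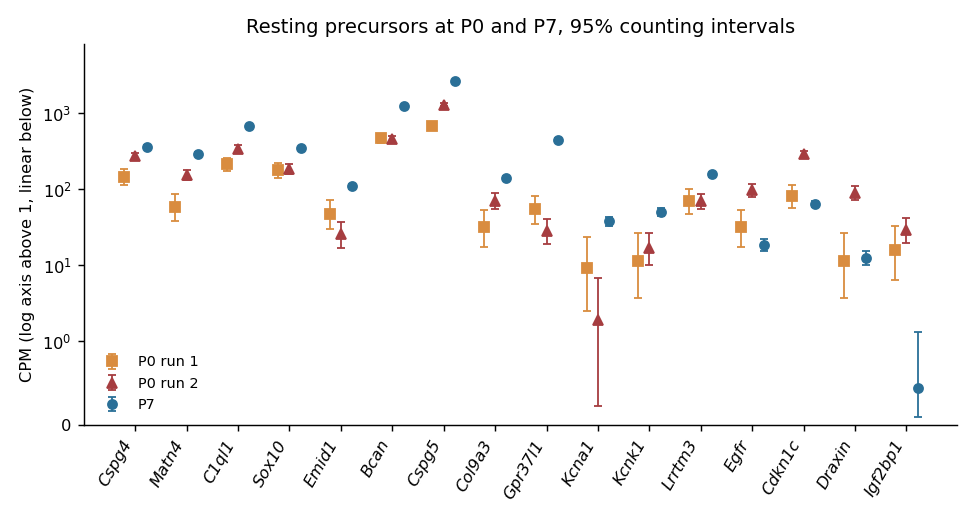
Level of 16 genes in CPM (vertical axis, log scale above 1 and linear below) in cells kept by the same rule in P0 run 1 (67 cells, orange), P0 run 2 (121 cells, red) and P7 (756 cells, blue); bars are 95% Poisson intervals. The first 12 genes lie higher at P7 than in both runs (Bcan 1230 against 463 and 451), Egfr, Cdkn1c and Igf2bp1 lie lower, and Draxin in run 1 (11) lies at the P7 level (12.2).

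Among 31 glutamate and GABA receptor genes 4 were called higher at P7 and 0 lower, against 5.68% called higher over all genes, 29 had the higher value at P7 and the median log2 ratio was 0.62. Gria1, an AMPA receptor subunit, had 71.7 CPM against 26.7 and 27.7, while the most abundant subunit, Gria2, had 804 against 552 and 880 and did not stand apart from run 2. Grin2a, an NMDA receptor subunit, had 16.7 CPM at P7 but 7.02 without neuron-marked cells. Without those cells 2 of 25 receptor genes were called higher, Gria1 and Grin1, a share near the 6.39% of all genes. Of 26 ion channel genes 5 were called higher and 0 lower. Kcna1, a voltage-gated potassium channel, had 36.9 CPM against 8.91 and 1.85, a ratio of 9.42 (4.27 to 25.9), and 10.4 without neuron- and astrocyte-marked cells. It had a UMI in 10.7% of thinned members and in 0 of the 1445 astrocyte cells, which allows up to 0.208%, and 0 of the 412 neurons, and its ratio in cells outside the lineage was 1.58. Kcnk1, a leak potassium channel, had 49.3 against 11 and 16.6. Of 34 synaptic adhesion genes 3 were called higher, Lrrtm3, Cntn6 and Astn2, a share near the 5.68% of all genes, and 32 had the higher value. Lrrtm3, a postsynaptic adhesion protein that binds neurexins, had 153 CPM against 69.0 and 68.3.

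The genes that stood farthest apart between the ages were of several kinds. Avp, Npy, Ghrh and Agrp led, and Trh, Vgf, Nts, Arhgap36, Syp and Nrsn2 were also among the first 15. Without neuron-marked cells the ratio of Avp went from 43.1 to 2.89, that of Ghrh from 55.4 to 5.36 and that of Nrsn2 from 6.5 to 1.60. Agt and Gfap, astrocyte genes, had 63.8% and 68.1% of their UMIs in the 31 astrocyte-marked members. Of 8 astrocyte markers that entered 4 were called higher at P7, Aqp4, Agt, Gja1 and Gfap, beside 5.68% of all genes. All 5 ependymal markers that entered were called higher too, with a median log2 ratio of 1.83, and the list summed to 119 CPM at P7 against 31.2 and 5.54 in the P0 runs. The part of these cell types in the age comparison was not tested beyond the values without marked cells. Gpr37l1, an orphan receptor of glia, had 441 CPM at P7 against 53.4 and 27.7, a ratio of 12.5 (9.56 to 16.7) that was 18.0 without neuron-marked cells and 18.0 without either set, and only 6.36% of its UMIs lay in astrocyte-marked members. It was in 64.6% of thinned members. Its ratio in cells outside the lineage was 15.4, so its summed level was higher at P7 there too. Apoe, a lipid carrier, had 2025 CPM against 771 and 578, with 38.5% of its UMIs in the astrocyte-marked members, and its ratio went from 3.19 to 2.30 without both sets.

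Of 35 gliogenic and progenitor genes, 0 were called higher at P7 and 3 lower (Nes, Dll1 and Egfr), against 0.886% called lower over all genes, 9 had the higher value at P7, and the median log2 ratio was -0.27. Egfr, the receptor for EGF, had 18.0 CPM against 31.2 and 96.0. Dll1, a Notch ligand, had 22.6 against 42.3 and 90.5. The neural progenitor factors Sox4 and Sox11 had 622 against 882 and 1366 and 300 against 470 and 616, which is less than 2-fold over both runs. Sox9 was at 239 CPM against 267 and 559. Without neuron-marked cells the 3 lower genes were Dll1, Egfr and Sox4, and Nes was no longer called. In Egfr, Dll1, Sox4, Sox11 and Sox9 P7 was lowest, and most of the distance was to run 2. Cells outside the lineage also had less Sox4 and Sox11 at P7, with ratios of 0.471 and 0.194, while Egfr had 1.15 there.

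Igf2bp1, an RNA-binding protein of embryonic tissue, had 3 UMIs at P7 (0.443 CPM) against 15.6 and 28.6 CPM, a ratio of 0.0179 (0.00353 to 0.0563). Cdkn1c, the cell cycle inhibitor p57, had 62.4 CPM against 80.2 and 283, so the P7 level was near that of run 1 and far below run 2. Draxin, a guidance protein, had 12.2 against 11 and 88.6 and was not lower than in run 1. Cldn5, a tight junction gene of endothelium, had 75.7 CPM in run 1, 0.923 in run 2 and 0.590 at P7. It moved with the endothelial genes of run 1, whose part in it was not tested. Several unnamed loci among the 15 lowest genes, such as Gm26735, likewise rested on run 2.

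The counts of calls that follow stand beside 5.68% of all genes called higher at P7 and 0.886% lower. Of 12 PDGF pathway genes that entered Etv4 was called higher and Spry2 lower, and 4 had the higher value. The list's median log2 ratio was -0.29 against 0.15 over all genes. Against run 1 alone it was 0.107, with 7 of 11 genes higher at P7, and against run 2 alone -0.31, with 3 of 12 higher. Spry2, a feedback inhibitor of receptor tyrosine kinases, had 65.7 CPM against 198 and 137. Spry1, its relative, had 261 against 71.3 and 192. Of 4 Wnt feedback genes Axin2 was called lower. It had 9.15 CPM against 22.3 and 24.0, and it was not called once neuron-marked cells were left out. Of 16 commitment genes Tmem163 was called higher at P7, and of 10 myelin genes Gjb1. Without neuron-marked cells the calls were 3 of 15, Lims2, Cd9 and Tmem163, and 3 of 10, Gjc3, Gjb1 and Car2, beside 6.39% of all genes. Of 22 growth factor and hormone receptor genes Cntfr was called higher and Egfr and Erbb4 lower. Among 24 sterol and lipid genes 2 were called higher, Dhcr7 and Apoe. Of 12 DNA replication genes 0 were called, of 2 mitosis genes 0, and of 15 cyclin and inhibitor genes 1, Cdkn1c. The runs differed here. Against run 1 alone 4 of 12 replication genes were called higher, Mcm2, Mcm3, Mcm6 and Hells, beside 16.1% of all genes. Of 22 sterol and lipid genes 7 were higher and 1 lower. Against run 2 alone 0 of 11 and 2 of 24 were higher, beside 8.11%.

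Genes of the early response to dissociation separated the P0 runs. Fos had 706 CPM at P7 against 185 and 876, and Egr1 358 against 125 and 958. Against run 1, 11 of 14 such genes were called higher at P7, beside 16.1% of all genes. Against run 2, 2 were higher and 3 lower, beside 8.11% and 1.27%. Handling of the runs is not described in the labels, and its part in these genes was not tested.

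Within P7, the members were set against 1668 cells with at least 3 Gpr17 UMIs, Olig1 or Olig2 and no Mki67 or Top2a UMI, of which 1446 differ from the members only by Gpr17. Gpr17 chose both groups, so the values are a description. Of 10342 genes, 85 (0.822%) were called higher in the members and 61 (0.59%) lower. Without neuron-marked cells 26 (0.254%) were higher and 56 (0.546%) lower. With all cells the higher side was led by Avp, Ghrh, Npy and Trh, neuropeptide genes whose UMIs lay for the most part in the neuron-marked members.

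The lower side held 17 genes of the commitment list and 6 of the myelin list among its 61. Of 22 commitment genes that entered, 17 were lower in the members and 0 higher, with a median log2 ratio of -1.25 against -0.02 over all genes, and 13 were lower without neuron-marked cells. Enpp6, a choline phosphodiesterase of newly formed oligodendrocytes, had 0.590 CPM in the members (4 UMIs) and 113 in the Gpr17-rich cells. Bmp4 had 0.590 and 82.2, and Bcas1, an early myelin-sheath protein, 127 and 630. Of 12 myelin genes 6 were lower: Mbp had 37.2 against 551 CPM, a ratio of 0.0674 (0.0593 to 0.0764). Of 19 precursor identity genes 0 were higher and 2 lower, Sox8 and Nkx2-2, and 0 passed 2-fold without neuron-marked cells, when Cspg4 had a ratio of 0.979 (0.934 to 1.03). Cdkn1c had 62.4 against 207 CPM. Egfr was higher in the members without neuron-marked cells, with a ratio of 2.80 (2.16 to 3.63), as was Vim with 2.09 (1.97 to 2.22). There 7 of 8 astrocyte markers also had the higher value in the members, with Gja1 called higher and S100b lower. So did 5 of 5 ependymal markers, with Tmem212 called higher. The median log2 ratios of the 2 lists were 0.36 and 0.80, and the part of such RNA in Egfr and Vim was not tested.

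Of the commitment and myelin genes only Enpp6, Bmp4, Bcas1, Neu4 and Mbp were split by Pdgfra in the Gpr17-rich cells. Their UMIs lay for the most part in the 222 Gpr17-rich cells with fewer than 2 Pdgfra UMIs, which differ from the members by Pdgfra as well. Enpp6 had 639 CPM there and 11 in the 1446 Gpr17-rich cells that share the Pdgfra limit, and 91.8% of its UMIs in Gpr17-rich cells lay in the 222. For Mbp the levels were 2901 and 95.1 CPM with 85.6% of the UMIs in the 222, for Bmp4 468 and 7.26 with 92.6%, and for Bcas1 2684 and 231 with 69.3%. Cspg4 went the other way, with 86.7 CPM in the 222 and 510 in the 1446. Against the members, at 0.590 CPM of Enpp6, 37.2 of Mbp and 127 of Bcas1, the 1446 were thus nearer than the whole Gpr17-rich group. Median depths were 10609.5 UMIs in the 222 and 8726.5 in the 1446. How many of the 17 commitment and 6 myelin calls would hold against the 1446 alone was not counted.

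The 2202 non-dividing Pdgfra cells were then split by Gpr17. Among them Enpp6 stayed between 0.391 and 0.811 CPM from 0 to 9 Gpr17 UMIs and was 57.7 CPM at 10 or more. Bmp4 went from 2.08 CPM at 5 to 9 UMIs to 31.6 and Mbp from 45.9 to 319. Across the limit, in members with 2 Gpr17 UMIs and cells with 3 or 4, Mbp had 38.5, 42.6 and 43.0 CPM, with overlapping intervals. For Cspg4, Id4, Vim, Cenpf and Cdkn1a the intervals at 2 and 3 UMIs did not overlap. Nor did those of Lims2, Ptprz1, Apoe, Cdkn1c and the rule gene Pdgfra, all higher at 3. Lims2, of the commitment list, had 140 (126 to 156), 180 (164 to 198) and 142, so it was lower again at 4, as were Apoe and Cdkn1c. Without neuron-marked cells the intervals of Pdgfra overlapped, and Lims2, Ptprz1, Apoe and Cdkn1c were not split that way. Cspg4 had 437 (411 to 464), 504 (476 to 533) and 524, higher above the limit. Id4, a differentiation inhibitor, had 59.2 (50 to 69.6), 36.1 (29.0 to 44.4) and 33.2, and Vim, an intermediate filament gene, 278 (257 to 299), 218 (200 to 237) and 190, both lower above it. Cenpf, a mitosis gene, had 28.0 (21.8 to 35.4), 4.05 (1.94 to 7.45) and 6.35, but only 14.3 and 8.21 at 0 and 1 UMIs. Cdkn1a had 19.9, 8.51 and 19.5, with no one direction. Without neuron-marked cells Id4 had 41.5 (33.3 to 51.1) at 2 and 27.8 (21.3 to 35.8) at 3 UMIs, and Cdkn1a 16.3 (11.4 to 22.7) and 7.30 (4.17 to 11.9), so their intervals overlapped. Those of Cspg4, 481 (453 to 512) and 548 (517 to 579), of Vim, 302 (279 to 326) and 232 (213 to 253), and of Cenpf, 30.8 (23.8 to 39.2) and 4.11 (1.88 to 7.80), did not. Bcas1 was 89.1 CPM (75.6 to 104) at 0, 142 at 2, 173 at 3 and 168 at 5 to 9 UMIs, and 516 in the 225 cells at 10 or more. Neu4, a sialidase, was higher at each step, from 2.85 CPM at 0 through 7.29 at 2 and 15.5 at 5 to 9 to 67.9. The other called commitment genes split this way were taken at 2, 5 to 9 and 10 or more UMIs. Sirt2 had 198, 213 and 574 CPM, Fyn 372, 385 and 610, and Tns3 105, 103 and 184. Lims2 had 140, 195 and 311, Itpr2 161, 183 and 266, and Nkx2-2 141, 174 and 262. Tcf7l2 had 68.5, 87.5 and 128, Myrf 11.3, 17.1 and 58.1, and 9630013A20Rik 2.43, 5.05 and 51.4. All of these were lower at 0 than at 2 UMIs.

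Among the members, those with 0 Gpr17 UMIs held the most neuron-marked cells, so 5 genes are given with and without such cells. C1ql1 had 370 CPM at 0, 713 at 1 and 854 at 2 UMIs, and 642, 880 and 946 without them. Sox10 had 215, 351 and 415, and 370 (332 to 411), 439 and 462 (434 to 492) without them. Pdgfra, though used by the rule, had 550, 963 and 1120, and 919, 1184 and 1240 without them. The order stayed but the distances were smaller in all 3. Id4 went the other way with 116, 98.2 and 59.2, and 105, 66.9 and 41.5 without them. Egfr had 29.1, 16.0 and 12.2, and 53.8 (39.9 to 70.9), 20.9 and 13.1 without them. Median depths were 7139.5, 6624 and 7117 UMIs, and 6114, 6256 and 6978 without neuron-marked cells.

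**Figure D4:**
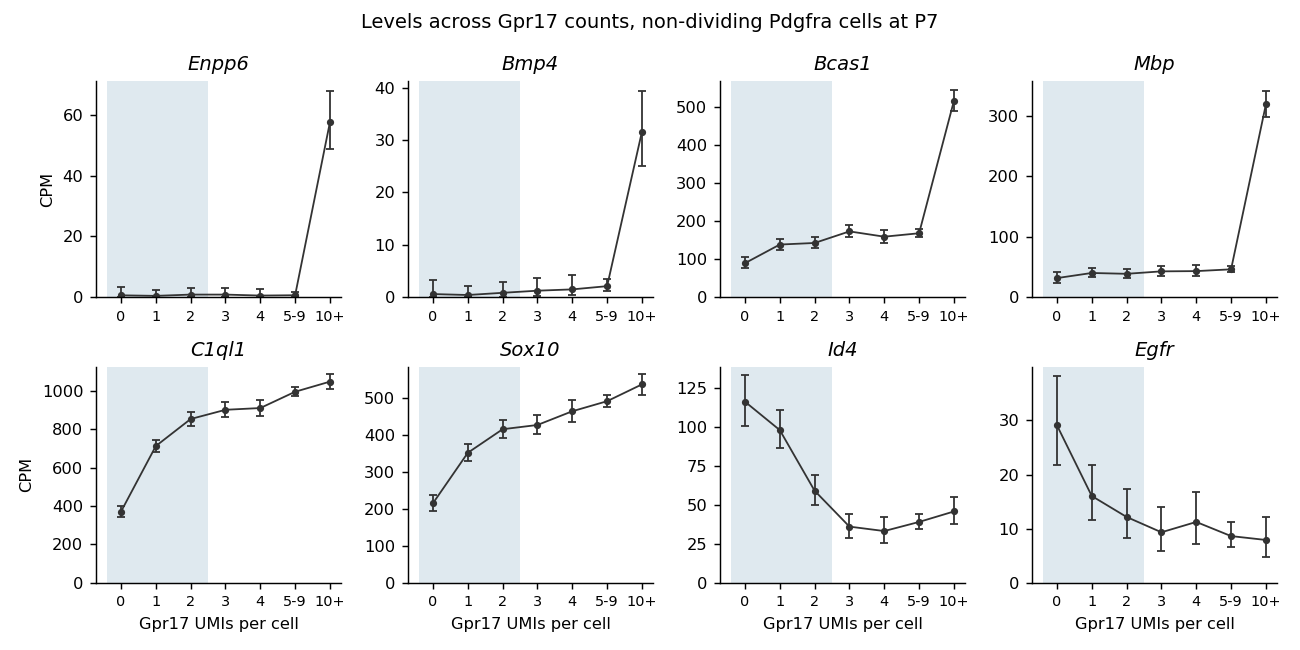
Level of 8 genes in CPM (vertical axes, from 0) across Gpr17 UMIs per cell (horizontal axes) among the 2202 non-dividing Pdgfra cells of P7; bars are 95% Poisson intervals and the shaded range holds the members. Enpp6 and Mbp stay low up to 9 UMIs and are higher at 10 or more (Mbp 45.9 and then 319), Bcas1 goes from 89.1 at 0 to 168 at 5 to 9 and Bmp4 to 2.08 before both are higher at 10 or more, C1ql1 and Sox10 are lowest at 0, and Id4 and Egfr are highest at 0.

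The members were also set against 177 dividing precursors of P7, which met the rule but had at least 2 UMIs of Mki67 and Top2a. These genes chose both groups, so other cycle genes were bound to differ. Of 10186 genes, 592 (5.81%) were lower in the members and 169 (1.66%) higher, and without neuron-marked cells 587 (5.88%) and 32 (0.321%). All 20 DNA replication genes and all 21 mitosis genes outside the rule were lower, with median log2 ratios of -2.27 and -4.14 against 0.05 over all genes. Cdk1, the mitotic kinase, had 8.26 against 306 CPM, Ube2c, a ubiquitin-conjugating enzyme of mitotic exit, 10.0 against 403, and Birc5 6.35 against 216. Pcna, the replication clamp, had 35.3 against 194 and Mcm5, a subunit of the replicative helicase, 24.6 against 173. Ependymal markers moved with these genes: all 6 were called lower in the members, with a median log2 ratio of -2.01, and their sum was 119 CPM against 684 in the dividing cells. Foxj1, the transcription factor of ciliated cells, had 19.9 against 184. The tanycyte list summed to 40.9 against 90.8 CPM, with Rax at 9.59 against 25.9 and Crym at 9.30 against 43.5. The part of such cells in the comparison was not tested. In the 116 cells with a single Mki67 or Top2a UMI Pcna had 70.3 CPM and Mcm5 69.4, between the members and the dividing cells.

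Of the 19 identity genes 0 passed 2-fold in either direction, nor did any of 18 matrix genes, beside 5.81% of all genes lower and 1.66% higher. With all cells 12 identity and 15 matrix genes had the higher value in the members, with median log2 ratios of 0.071 and 0.15 against 0.046 over all genes. Without neuron-marked cells all 19 and all 18 had the higher value in the members, with medians of 0.37 and 0.37 against 0.075. With all cells Sox10 had 339 against 341 CPM, with a ratio of 0.993 (0.908 to 1.09). Cspg4 had 357 against 357, with a ratio of 0.999 (0.915 to 1.09), and C1ql1 676 against 483, with 1.40 (1.30 to 1.5). Neuron-marked cells were 11% of these members and 3.95% of these dividing cells. Without them Sox10 and Cspg4, both among the 19 identity genes, had the higher value in the members. Of 20 cyclin and inhibitor genes 7 were lower in the members, Ccne1, Ccne2, Cdk2, Cdkn1a, Cdkn2c, Rbl1 and E2f1, and 0 higher, beside the same shares. Without neuron-marked cells 8 were lower, with Cdkn2d added, beside 5.88% of all genes. The G1 cyclin Ccnd1 had 328 against 294 CPM, its kinase Cdk4 364 against 509, and the inhibitors Cdkn1b and Cdkn1c 33.1 against 48.4 and 62.4 against 57.3. No inhibitor on the list was called higher in the members.

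**Figure D5:**
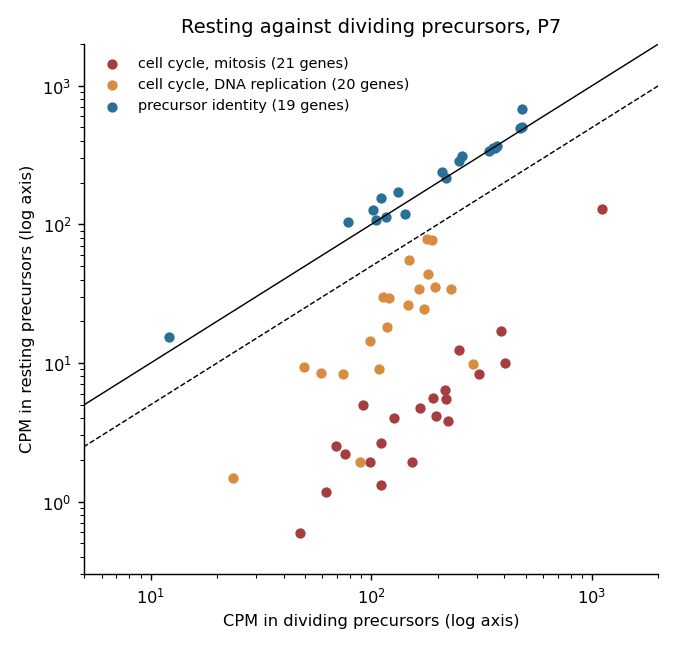
Level in the 756 members (vertical axis) against that in the 177 dividing precursors of P7 (horizontal axis), both in CPM on log axes, 1 point per gene; the solid line marks equal levels and the dashed line a plain 2-fold difference. The 21 mitosis genes (red) and 20 replication genes (orange) lie below the dashed line, and the 19 identity genes (blue) lie near the line of equal levels.

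Of 17 regional transcription factors that entered the comparison of ages, 0 were called higher at P7 and 1 lower, beside 5.68% and 0.886% of all genes. The lower gene was Meis2, which had 35.6 CPM against 31.2 and 113 and a ratio of 1.0 without neuron-marked cells. Without those cells Dlx1 and Zic1 were the lower genes, 2 of 15, beside 1.06% of all genes. Against run 1 alone Nkx2-4, Six3, Six6 and Foxd1 were called higher and Nkx2-1 and Dlx1 lower, of 14, beside 16.1% and 1.79%. Against run 2 alone Nkx6-2 was called higher and Meis2 lower, of 18, beside 8.11% and 1.27%. Irx1, an Iroquois factor, had 90.8 CPM in the members against 19.9 in the astrocyte cells, 1.29 in the neurons and 2.03 in cells outside the lineage, and a UMI in 22.5% of thinned members. It was found in 27.6% of thinned Gpr17-rich cells and in 24.9% of dividing ones, and in the P0 runs it was 55.7 and 67.4 CPM. En1, a factor best known from the midbrain and hindbrain, had 8.85 CPM (6.76 to 11.4) in the members against 0.419 in the astrocyte cells. The Hox genes Hoxa5, Hoxb3 and Hoxc8, of the hindbrain and spinal cord, had 0 UMIs. Foxd1 was at 35.0 CPM against 25.3 in the astrocyte cells, and Six3, an anterior factor, at 158 CPM against 183 in the astrocyte cells and 217 in the neurons. Sox3, a progenitor factor, had 145 CPM in the members. It was called higher at P7 against run 1 alone, but not against run 2 alone or both runs. Rax itself, the gene that drove the Cre, had 9.59 CPM, and Nkx2-1, of the ventral hypothalamus, 39.8. Otp and Dlx1, factors of hypothalamic neurons, went from 35.3 to 3.81 CPM and from 29.2 to 4.61 when the neuron-marked cells were left out, so their level lay mostly in those cells.

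Among the members themselves the genes with the widest spread beyond counting noise (variance of Pearson residuals, median 1.11 over genes) were Malat1 at 43.9, Apoe at 29.9, Meg3 at 29.7 and Sparcl1 at 21.9. Malat1 is a nuclear non-coding RNA. Next came genes of neurons (Snhg11, Tubb3, Stmn2, Scg2) and astrocytes (Slc6a11, Slc1a3, Agt). Without neuron-marked cells Malat1 stayed first at 35.4, Apoe had 26.2, Sparcl1 19.9, Cst3 10.4 and Slc6a11 10.1, and Tubb3, Stmn2 and Scg2 left the first 25. The astrocyte genes differed in how far few cells held their UMIs. There the top 1% of cells held 35.3% of the UMIs of Agt and 26.5% of those of Sparcl1. The share was 21.5% for Slc6a11, 15.3% for Slc1a3, 14.6% for Apoe and 4.56% for Malat1. Slc1a3 had a UMI in 73.3% of these cells and Agt in 22.7%. Fos and the immediate early gene Btg2 were among the 25 as well, at 7.45 and 5.56. No gene of the precursor identity list was among the 25 in either case.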

How the data were processed

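The deposited table holds raw UMI counts per gene and cell, 28879 genes by 43261 cells, with 0 values negative or not whole. The authors' steps are known only by name: Cell Ranger 3.0.2, Seurat and the mm10 genome build are named in the submitters' processing notes with no role, and the annotation and cell filter are not given in the sources used here. Per the labels' protocols, libraries were 10x 3-prime version 3. Cells were assigned to ages and runs by the start of their names. The members and gene lists were chosen with earlier results of these data known.

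UMIs were summed over the cells of a group and divided by the group's total (CPM). Genes entered a comparison with at least 10 CPM and 30 UMIs in the higher group. Mitochondrial, sex-linked, tdTomato and the 6 rule genes stayed out. A gene was called at a ratio of 2 after 5 CPM was added. No test was made, since each age is 1 sample and cells are not replicates. Ratios printed with intervals are plain. Named genes were the 15 most different in each direction per comparison (for P7 against P0 those of the same direction against run 2), the 25 most variable, the 20 leading against other P7 cells, and examples of 17 gene lists and 12 marker lists; 1 listed gene was not in the table. The 2 thresholds that mark neuron- and astrocyte-marked cells, and the E14 cells' genes, were chosen after the data were seen. The astrocyte reference had at least 3 Aqp4 and Agt UMIs and no Pdgfra or Gpr17, and the neuron reference at least 5 of Snap25, Rbfox3 and no Pdgfra, Olig1 or Olig2.

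Scrublet in Scanpy 1.11.5, with an assumed rate of 6%, called 239 of 8917 P7 cells (2.68%), 19 of 2452 in P0 run 1 and 113 of 9628 in run 2. Called cells were kept, and leaving them out was an alternative. Python 3.11.15, numpy 2.4.6, scipy 1.17.1 and matplotlib 3.10.9 were used, and the ratio step was tested on simulated data. UMIs mark molecules, and intervals cover counting error only.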

Additional observations from a re-analysis of the deposited data

Results flagged for a closer look

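At E14, an age that entered no comparison, 7 of 17150 cells met the rule. They held 38 UMIs of Pdgfra in 7 cells, 90 of Olig1 in 5 and 38 of Olig2 in 7. Sox10 had 6 UMIs in 3 of them, Cspg4 4 UMIs in 3 and C1ql1 9 UMIs in 2. The fibroblast genes Col1a1, Col1a2 and Dcn had 0 UMIs in all 7, and the neuronal gene Stmn2 had 59 UMIs in 5. At E11 0 of 5114 cells met the rule. The cells were singled out because a signal appeared in a sample outside the comparisons; what they are was not tested.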

How the results depend on the processing

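No paired analysis was possible because each age is 1 sample, so leaving out a replicate was not possible either. The members' share of P7 cells, 8.48%, was 7.52% with at least 3 Pdgfra UMIs, 13.5% with at least 1 and 1.79% with 0 Gpr17 UMIs. It was 11% with neuron-marked cells left out of all classes and 14.3% with astrocyte-marked cells left out too. For P7 against P0, the 545 higher genes became 897 with 0 Gpr17 UMIs, 819 with 1 CPM added, 234 at 50 CPM or more and 1290 against run 1 alone. The 85 lower genes became 152 with 1 Pdgfra UMI, 132 with 1 CPM added, 46 at 50 CPM or more and 144 against run 1 alone.

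Against Gpr17-rich cells, the 85 higher genes became 15 with 3 Pdgfra UMIs, 590 with 1, 395 with 0 Gpr17 UMIs, 18 on thinned cells, 163 without called doublets, 15 as a mean over cells, 187 with 1 CPM added, 35 at 50 CPM or more, 51 in cells of 5000 to 20000 UMIs, 286 against 10 Gpr17 UMIs or more, 26 without neuron-marked cells and 16 without astrocyte-marked cells too. The 61 lower genes became 218 with 1 Pdgfra UMI, 219 with 0 Gpr17 UMIs, 29 as a mean over cells, 40 at 50 CPM or more and 266 against 10 Gpr17 UMIs or more. Against dividing cells, the 169 higher genes became 51 with 3 Pdgfra UMIs, 659 with 1, 585 with 0 Gpr17 UMIs, 54 as a mean over cells, 295 with 1 CPM added, 71 at 50 CPM or more, 60 in the depth window, 28 against cells with 1 Mki67 or Top2a UMI or more, 32 without neuron-marked cells and 39 without astrocyte-marked cells too. The 592 lower genes became 1120 with 1 Pdgfra UMI and 290 at 50 CPM or more.

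The log2 ratio of 12 named genes turned. Against P0 run 1 alone it was 0.38 for CT010467.1, 0.10 for Draxin, 0.70 for Fbln2, 0.083 for Gm20417, 0.094 for Gm26735, 0.32 for Gm37376, 0.53 for Gm37534 and 1.48 for Hist1h1e. It was -0.056 for Avp against Gpr17-rich cells with 3 Pdgfra UMIs and -0.14 for Ghrh against dividing cells in the depth window. Without neuron- and astrocyte-marked cells it was -0.039 for Gal against dividing cells and -0.12 for Otp against Gpr17-rich cells. The cause of these shifts was not tested. Sets without neuron- or astrocyte-marked cells were chosen after seeing the data. In 188 cells at P0, a gene at 10 CPM rests on few UMIs.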
